A study of Mus musculus with 6 samples.

Results

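The Bcl2 family decides whether the outer membrane of the mitochondrion stays closed or is opened to start apoptosis. 9 of its genes were followed here, selected by name in the deposited table, out of 25899 genes in all. They were grouped as the pro-survival genes *Bcl2l10*, *Mcl1*, *Bcl2*, *Bcl2l1* and *Bcl2l2*, the effector genes *Bax* and *Bak1*, and the BH3-only genes *Bcl2l11* and *Bbc3*. The groups are labels, and what the proteins do, that of *Bcl2l10* included, was not measured here. All 9 genes were in the table, 7 were above 0 in at least 1 library, and 3 had enough signal to be tested.

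The 6 libraries came from denuded, fully grown oocytes of CD1 mice aged 58 weeks, the aged females (AF). Ovaries had been primed with pregnant mare serum gonadotropin, the oocytes were held at the germinal vesicle stage with IBMX, released and cultured for 180 minutes to nuclear envelope breakdown (NEBD), and treated with cycloheximide, which holds ribosomes on mRNA. Lysates of 200 oocytes per sample were separated on sucrose gradients into 10 fractions, which were pooled into a non-polysomal (NP) and a polysomal (P) part. There were 3 AF NP and 3 AF P libraries and no untreated or young group among them, so P against NP was the only comparison. It asks which mRNAs had a higher level in P relative to NP, and not what part of an mRNA was carried by polysomes. By the study's text, NP held free RNA and also RNA on single ribosomes. The study's text names the mice ICR and gives an age in whole months that is younger than the labelled 58 weeks. In pooled oocytes, fewer cells and less RNA per cell cannot be told apart.

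As background, BAX and BAK1 form the pores that release cytochrome c, pro-survival proteins bind and restrain them, and BH3-only proteins such as BIM (*Bcl2l11*) and PUMA (*Bbc3*) neutralise the pro-survival proteins or activate the effectors. *Bcl2l10*, also called Diva or Boo, is known for its high expression in the ovary and oocyte. A fully grown oocyte no longer transcribes its genome and draws on stored mRNAs, many of which are recruited to polysomes during maturation through elements near their 3′ end: the polyadenylation signal, and U-rich cytoplasmic polyadenylation elements that bind CPEB proteins.

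The 3′ ends of the 5 members with recovered reads in both fractions are shown because these elements lie there. Each is the 30 bases that end with the last polyadenylation signal of the principal transcript, read 5′ to 3′ from GENCODE M21 transcripts (GRCm38), in the last exon and 3′ UTR. The signal and any TTTTAT or TTTTAAT are in capitals, and 13 to 21 bases followed before the transcript's end.
Bcl2l10: catTTTTAATaacttcaaattcttAATAAA
Bcl2l1: gtgaaggtgaaagtgcagttcagtAATAAA
Bax: ggaatggtggcctggggaggcgccAATAAA
Mcl1: aacttctgtttcttctgaagagaaAATAAA
Bcl2l11: tatgttcttaatgaaTTTTATataAATAAA

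The windows lie at chr9:75351588-75351617 (plus strand) for *Bcl2l10*, chr2:152780689-152780718 (minus) for *Bcl2l1*, chr7:45461718-45461747 (minus) for *Bax*, chr3:95663134-95663163 (plus) for *Mcl1* and chr2:128162500-128162529 (plus) for *Bcl2l11*. *Bcl2l10* held TTTTAAT 14 bases before its signal, and *Bcl2l11* held TTTTAT 3 bases before its signal. Within the last 100 bases on the transcript strand, all 9 members held AATAAA, against 13284 of 21775 transcripts, and 3 of 9 (*Bcl2l10*, *Bcl2l2* and *Bcl2l11*) held TTTTAT or TTTTAAT, against 16.5% of the transcripts. These are matches of letters and not tested sites.

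FPKM relates the fragments on a gene's exons to exon length and to all mapped reads of the library, so levels can be compared between genes of a library. Values of lowly covered genes fell on whole steps, and taking 1 step as 1 read gave an estimated depth of 1237051, 18094517 and 12128726 reads in AF NP replicates 1 to 3 and of 163746, 1141458 and 1549178 in AF P. The P libraries were therefore shallower than 2 of the 3 NP libraries, and AF P replicate 1 was the shallowest. Genes used by every cell were also listed at 0 in places: *Gapdh*, picked after its values were seen, had 3.23, 2.89 and 10.2 FPKM in the NP libraries and 0, 0.389 and 0.859 in the P libraries. A 0 is therefore given only as listed, beside the FPKM that 3 reads would be worth in that library, a limit that covers counting error only. All 12 oocyte markers were above the filter, with summed levels of 12111 to 14998 FPKM in NP and 5139 to 15511 in P.

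Among the genes grouped as pro-survival, *Bcl2l10* was the abundant one. It lies on chromosome 9 (75347758 to 75351632, plus strand, GRCm38) and has no other gene over it in the annotation. Its level was 4130, 3015 and 2667 FPKM in AF NP replicates 1 to 3 and 2762, 2203 and 4854 FPKM in AF P. The groups overlapped: AF P replicate 3 was the highest of the 6 libraries and AF P replicate 2 the lowest. The means were 3271 ± 764 FPKM in NP and 3273 ± 1397 in P (SD, n = 3 each). These values rested on 6233, 66567 and 39464 recovered reads in NP and on 552, 3068 and 9174 in P, the fewest in AF P replicate 1.

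By its mean over the 6 libraries, *Bcl2l10* was the 8th most abundant gene of the table. Its place within a library was 8, 11 and 19 in NP and 8, 4 and 4 in P. For scale, the oocyte growth factor gene *Gdf9* had 1591, 1580 and 2602 FPKM in the NP libraries and 4628, 1329 and 4776 in the P libraries, and the zona pellucida gene *Zp3* had 2602, 2891 and 4157 FPKM in the NP libraries and 2021, 589 and 1999 in the P libraries. *Bcl2l10* was above *Zp3* in 5 of 6 libraries, with ratios of 1.59, 1.04 and 0.642 in NP and 1.37, 3.74 and 2.43 in P. The oocyte linker histone gene *H1foo* was lower, at 1382, 1755 and 1764 FPKM in NP and 1327, 384 and 947 FPKM in P.

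*Bcl2l1*, which encodes BCL-XL, was the next member and was present in all 6 libraries. It lies on chromosome 2 (152780668 to 152831728, minus strand). Its level was 58.8, 187 and 37.4 FPKM in NP and 41.3, 47.2 and 36.6 FPKM in P. AF NP replicate 2 stood above the rest, while the 3 P libraries lay close together at a mean of 41.7 ± 5.31 FPKM, against 94.5 ± 81.0 in NP (SD, n = 3 each). In AF P replicate 1 the value rested on 31 recovered reads.

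**Figure D1:**
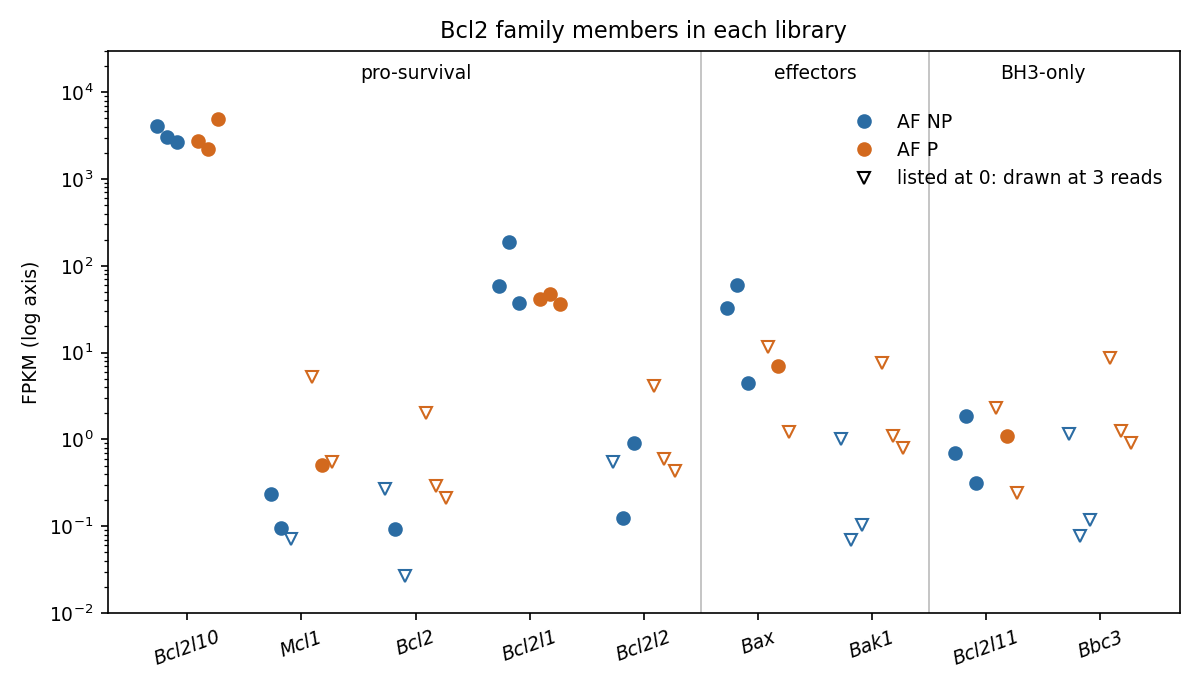
FPKM (log axis) of the 9 Bcl2 family members in the 3 AF NP (blue) and 3 AF P (orange) libraries, replicates 1 to 3 from left to right; open triangles mark libraries that list the gene at 0, drawn at the FPKM that 3 reads would be worth. *Bcl2l10* sits at 2203 FPKM or more in every library, *Bcl2l1* between 36.6 and 187, and most P values of the other members are listed at 0.

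The other pro-survival genes were listed below 1 FPKM in every library, although in AF P replicate 1 the 3-read limit of each was above that. *Mcl1*, an anti-apoptotic gene with a short-lived protein, lies on chromosome 3 (95658721 to 95663176, plus strand). It had 0.232, 0.0951 and 0 FPKM in the NP libraries and 0, 0.503 and 0 in the P libraries, which came to 1, 6 and 2 recovered reads in AF NP replicates 1 and 2 and AF P replicate 2. The limit of 3 reads was 0.0710 FPKM in AF NP replicate 3, 0.556 in AF P replicate 3 and 5.26 in AF P replicate 1. In AF NP replicate 2, the deepest library, *Mcl1* at 0.0951 FPKM stood beside *Bcl2l10* at 3015. A stretch of 245 bases of *Mcl1* matches *Gm20432* at 91.8% identity, so reads there may have been placed elsewhere.

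*Bcl2*, the founding member, on chromosome 1 (106538178 to 106714274, minus strand), was at 0.0922 FPKM in AF NP replicate 2, or about 15 reads, and listed at 0 in the other 5 libraries. *D630008O14Rik*, on the opposite strand, shares 498 of its bases and was at 0 throughout. *Bcl2l2*, which encodes BCL-W, at 54883377 to 54888234 on the plus strand of chromosome 14, had 0, 0.124 and 0.905 FPKM in the NP libraries, or 0, 10 and 49 reads, and was listed at 0 in all 3 P libraries. The 3-read limits for *Bcl2l2* in P were 4.11, 0.589 and 0.434 FPKM, so a level as in AF NP replicate 2 would not have been detectable there, while that of AF NP replicate 3 was above the limits of AF P replicates 2 and 3. It shares 595 identical bases with the read-through gene *Gm20521* on the same strand, which had 1.30, 2.26 and 3.05 FPKM in the NP libraries and 0, 16.9 and 0 in the P libraries. Levels of *Bcl2l2* therefore depend on how reads of the shared bases were assigned.

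Of the effectors, *Bax* was present and *Bak1* was not detected. *Bax* lies on chromosome 7 (45461695 to 45466898, minus strand). Its level was 32.5, 59.7 and 4.46 FPKM in NP and 0, 7.06 and 0 FPKM in P. All 3 NP libraries held it, but the groups overlapped, since AF P replicate 2 was above AF NP replicate 3. The 3-read limits were 11.6 FPKM in AF P replicate 1 and 1.23 FPKM in AF P replicate 3. The 0 of AF P replicate 1 is thus below the level of AF NP replicates 1 and 2 and cannot be told from that of AF NP replicate 3. The recovered reads of *Bax* did not come out whole, so its exon length, and with it these limits, is less certain, and 193 of its bases are identical to *Gm45808*.

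*Bak1* (chromosome 17, 27019810 to 27029009, minus strand) was listed at 0 in all 6 libraries. In the deepest library, AF NP replicate 2, 3 reads would be worth 0.0689 FPKM, and in P the limits were 7.61, 1.09 and 0.805 FPKM. *Ggnbp1*, which overlaps *Bak1* on the opposite strand and shares 263 bases with it, had 6.17, 6.15 and 16.6 FPKM in the NP libraries and 0.879, 0.883 and 0 in the P libraries. Without a stated strand setting, reads of the shared bases cannot be told apart.

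Of the BH3-only members, *Bcl2l11* was listed below 2 FPKM and *Bbc3* at 0. *Bcl2l11*, at 128126038 to 128162547 on the plus strand of chromosome 2, had 0.704, 1.84 and 0.318 FPKM in NP, from 7, 268 and 31 recovered reads, and 0, 1.09 and 0 FPKM in P, where AF P replicate 2 held 10 reads. It missed the filter of a mean above 1 FPKM in either fraction and was not tested. *Bbc3* (chromosome 7, 16309616 to 16318205, plus strand) was listed at 0 in all 6 libraries, with 3-read limits of 1.14, 0.0781 and 0.116 FPKM in the NP libraries and 8.63, 1.24 and 0.912 in the P libraries.

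Ordered by the mean over the 6 libraries, the members ran *Bcl2l10*, *Bcl2l1*, *Bax*, *Bcl2l11*, *Bcl2l2*, *Mcl1* and *Bcl2*, with *Bak1* and *Bbc3* at 0. *Bcl2l10* was above *Bcl2l1* in 6 of 6 libraries, by 70.2, 16.1 and 71.4 times in NP and by 66.9, 46.7 and 132.6 times in P. *Bcl2l1* was above *Bax* in 6 of 6 libraries, by 1.81, 3.14 and 8.38 times in NP and by 6.69 times in AF P replicate 2, the P library that held *Bax*. The ranges of *Bcl2l1* and *Bax* overlapped in NP, so this order rests on the comparison within libraries. *Bcl2l11* was the highest of the other detected members in AF NP replicates 1 and 2 and *Bcl2l2* in replicate 3, and their order was not resolved.

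Within each library, *Bcl2l10* made up nearly all of the signal of the 9 members. The 16 other Bcl2 family genes, given below, are outside this sum. They summed to 129 to 161 FPKM in NP and 45.6 to 146 in P. Its share of the summed FPKM of the 9 members was 97.8%, 92.4% and 98.4% in NP and 98.5%, 97.5% and 99.3% in P, with means of 96.2 ± 3.33% and 98.4 ± 0.865% (SD, n = 3 each). The lowest share, in AF NP replicate 2, was the library with the most *Bcl2l1* and *Bax*, and the groups overlapped.

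**Figure D2:**
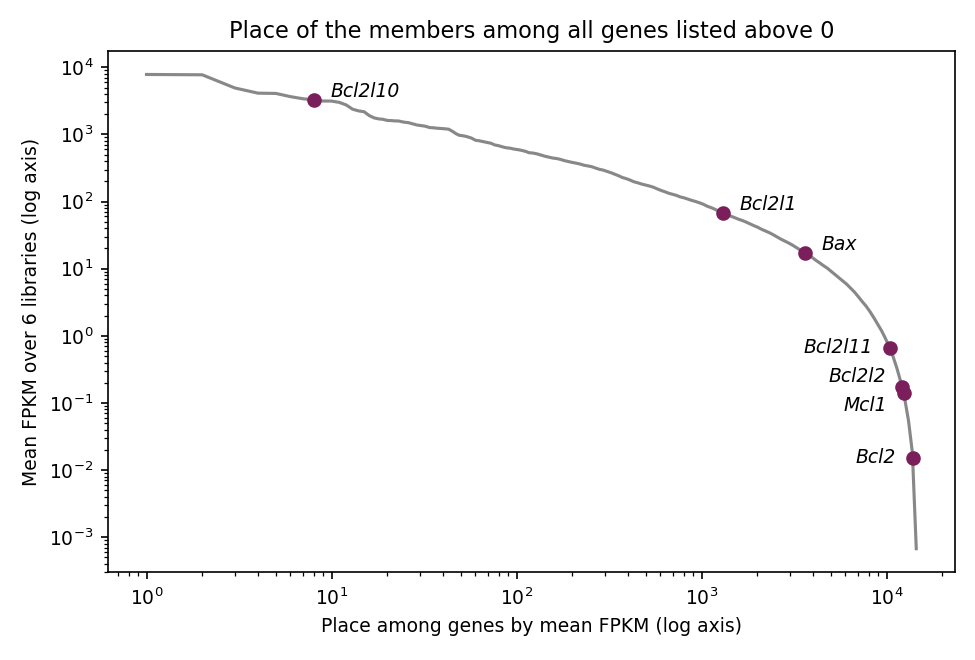
Mean FPKM over the 6 libraries against the place of a gene in the order of abundance (both log axes), for genes listed above 0; points mark the members. *Bcl2l10* stands at place 8 and *Bcl2l1* at place 1301, while *Bak1* and *Bbc3* are at 0 and not drawn.

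In the main fit, made without pairs, no member passed the test between P and NP. With the replicate number as a block, *Bax* passed (limma, adjusted p = 0.081), and so did 668 of all genes. Across all 10578 genes tested, the main fit, limma on log2(FPKM + 1), called 192 at an adjusted p of 0.1, or 1.82%. Of these, 190, or 1.8%, were lower in P and 2 higher. This split belongs to the FPKM as deposited: 3 genes (1 lower) passed after median-of-ratios rescaling, 4 (2 lower) after quantile normalization and 6 (4 lower) at a common FPKM sum, and 0 passed without any 1 of AF NP replicates 1 to 3 or AF P replicates 1 and 2. Of the 3 members tested, 0 were called and 1, *Bax*, had an unadjusted p under 0.05, against 1669 (15.8%) of all genes. After median-of-ratios rescaling, quantile normalization and at a common FPKM sum, the unadjusted p of *Bax* was 0.0525, 0.0524 and 0.0657, and 803, 762 and 757 of all genes were under 0.05, with *Bcl2l10* (limma, unadjusted p = 0.0251, adjusted p = 0.644) among them at the common sum. The log2 ratios of P to NP had a median of -1.03 over all genes tested and of -0.83 over the 3 members.

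For *Bcl2l10* the log2 ratio was -0.06 with an SE of 0.42 and a 95% interval from -0.93 to 0.82 (limma, adjusted p = 0.954). It was 0.97 above the median of all genes. For *Bcl2l1* the log2 ratio was -0.83 with an SE of 0.91 and an interval from -2.72 to 1.06 (adjusted p = 0.618), 0.20 above the median. Both signs depended on scaling: when the libraries were rescaled by the median of ratios, to equal quantiles or to a common FPKM sum, the log2 ratio was 0.81 to 0.95 for *Bcl2l10* and 0.09 to 0.17 for *Bcl2l1*, with adjusted p of at least 0.644. Relative to the median of all genes, *Bcl2l10* was between 0.46 and 1.67 higher under the alternatives run, apart from the one without a filter, in which the median gene is at 0. Over the same alternatives *Bcl2l1* ranged from -0.27 to 0.89 around the median, and fell below it with a pseudocount of 5 (-0.27) and without AF NP replicate 1 (-0.12).

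*Bax* was lower in P on the FPKM as deposited, without passing the threshold. Its log2 ratio was -3.48 with an SE of 1.33 and an interval from -6.23 to -0.72 (limma, unadjusted p = 0.0157, adjusted p = 0.209), 2.45 below the median of all genes, and it kept its sign under every rescaling run. With the replicate number as a block its adjusted p was 0.081, past the threshold, and 668 of all genes passed in place of 192. Without AF NP replicate 1, AF NP replicate 2, AF P replicate 1 or AF P replicate 3, limma's unadjusted p was 0.114, 0.147, 0.0687 and 0.0683, no longer under 0.05, and no adjusted p passed. All 3 P libraries were shallower than AF NP replicates 2 and 3, although AF P replicate 3, which lists *Bax* at 0, was deeper than AF NP replicate 1. The granulosa markers, of which 0 passed the test, summed to 11.2 to 131 FPKM in NP and 2.28 to 16.5 in P, with AF P replicate 1 above AF NP replicate 1. The vessel marker *Pecam1* had 27.2, 21.8 and 23.8 FPKM in the NP libraries and 11.3, 4.67 and 0 in the P libraries. Its fractions did not overlap on the FPKM as deposited, as for 23.8% of all tested genes. The part of depth or of these markers in the *Bax* result was not tested.

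By library number, *Bcl2l1* and *Bax* were lower in P in 3 of 3 pairs and *Bcl2l10* in 2 of 3, against 38.6% of all genes tested that were lower in 3 of 3. For none of the 3 tested members did P and NP stay apart, while 23.8% of all tested genes did not overlap. The members' counts are too few to set against these shares.

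**Figure D3:**
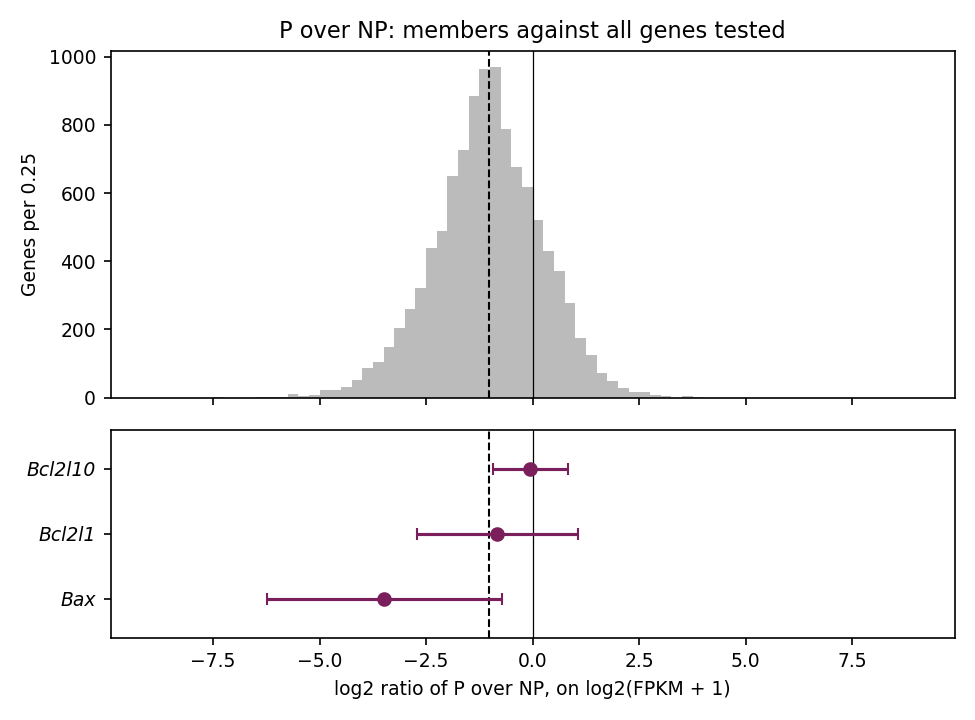
The upper panel counts the 10578 tested genes by log2 ratio of P over NP, in bins of 0.25, and the lower panel gives the 3 tested members with 95% limma intervals; the dashed line is the median of all genes, -1.03, and the solid line is 0. The intervals of *Bcl2l10* and *Bcl2l1* cross 0, and that of *Bax* lies below it, before adjustment over all genes.

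Measured as a share of each library's own FPKM sum, *Bcl2l10* was the exception to the overlap. It took 0.675%, 0.476% and 0.447% of all FPKM in NP and 0.809%, 0.895% and 1.23% in P. Each P library was above each NP library on this scale, as for 3.02% of all tested genes. The exact two-sided permutation p is 0.1, the smallest that 3 against 3 allows, and limma after rescaling to a common sum gave an adjusted p of 0.644. The FPKM sums themselves differed, at 597261 to 633110 in NP and 246182 to 393876 in P.

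*Bcl2l10* and *Bcl2l1* did not vary alike over the libraries, as AF P replicate 3 was the highest for the former and AF NP replicate 2 for the latter. The tested genes whose log2(FPKM + 1) followed *Bcl2l10* most closely over the 6 libraries were *Fam86* (Pearson r = 0.993), *Gm13990* (0.986) and *Pabpn1l* (0.979), and 18 genes were above 0.95. Those closest to *Bcl2l1* were *Snx30* (0.998), *Rassf6* (0.996) and *Pygo1* (0.996), with 318 genes above 0.95. The points share library and depth, and these values are descriptions.

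No gene in the lists for the rest of the cell death pathway passed the test. Of 45 further genes in 5 lists, all in the table, 9 were at 0 in every library, 33 were tested, 25 had a negative and 8 a positive log2 ratio, and 0 passed (limma, 4 at an unadjusted p under 0.05). Over all genes tested, 1.82% passed and 15.8% had an unadjusted p under 0.05, so both counts are near the background. Their median log2 ratio was -0.86, beside -1.03 for all genes, so negative ratios outnumber positive ones in the background too.

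The other Bcl2 family genes gave 8 tested of 16, with a median of -1.07. *Bcl2l13*, a mitochondrial relative, had 50.8, 54.2 and 71.0 FPKM in the NP libraries and 36.1, 68.9 and 4.47 in the P libraries. *Bik*, a BH3-only gene, had 38.6, 53.7 and 40.4 FPKM in the NP libraries and 6.47, 0 and 36.3 in the P libraries. On the FPKM as deposited, every P library was below every NP library, and 23.8% of all tested genes likewise did not overlap. *Bid*, which links death receptors to the mitochondrion, had 14.3, 7.53 and 0.186 FPKM in the NP libraries and 0, 73.0 and 0 in the P libraries, and 1 P library held all of its P signal. In NP, *Bik* was above the BH3-only member *Bcl2l11* in 3 of 3 libraries.

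Among genes for released mitochondrial proteins and caspases, 9 of 13 were tested, 7 with a negative ratio. *Endog*, a mitochondrial nuclease, had 139, 91.7 and 1.32 FPKM in the NP libraries and 0, 9.89 and 414 in the P libraries, with AF P replicate 3 alone setting the P mean. *Diablo*, which blocks inhibitors of apoptosis, had 19.4, 14.2 and 52.0 FPKM in the NP libraries and 14.9, 10.8 and 12.3 in the P libraries. *Casp2*, a caspase linked to oocyte death, had 10.1, 8.61 and 0.224 FPKM in the NP libraries and 23.6, 0.878 and 11.6 in the P libraries.

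The inhibitors of apoptosis were all tested, 5 of 5, with 3 negative ratios and a median of -0.48. *Birc3*, which encodes cIAP2, had 132, 160 and 69.0 FPKM in the NP libraries and 59.7, 76.6 and 116 in the P libraries, higher than *Bcl2l1* in 5 of 6 libraries. *Birc5*, the survivin gene that also serves chromosome segregation, had 11.9, 28.7 and 17.8 FPKM in the NP libraries and 12.6, 16.2 and 37.2 in the P libraries, and *Birc6* had 5.03, 9.0 and 17.7 in the NP libraries and 33.9, 14.7 and 13.9 in the P libraries. The groups overlapped for all 3.

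Of the genes for MCL1 turnover and the outer membrane channels, 6 of 6 were tested, 4 with a negative ratio. *Vdac2*, whose channel protein binds BAK1, had 22.9, 29.6 and 182 FPKM in the NP libraries and 1.31, 15.2 and 0.139 in the P libraries. Its fractions did not overlap on the FPKM as deposited, as for 23.8% of all tested genes. *Vdac3* had 109, 198 and 31.2 FPKM in the NP libraries and 112, 57.3 and 12.2 in the P libraries. *Usp9x*, a deubiquitinase that stabilises MCL1, had 26.4, 29.3 and 5.81 FPKM in the NP libraries and 22.7, 42.6 and 9.56 in the P libraries, while the highest value listed for *Mcl1* itself was 0.503.

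Among the 5 upstream death signals, 3 had a negative ratio. *Foxo3*, a transcription factor that restrains follicle activation, had 228, 132 and 32.5 FPKM in the NP libraries and 127, 75.3 and 112 in the P libraries. *Trp63*, the guardian of oocyte genome integrity, had 1.64, 18.1 and 176 FPKM in the NP libraries and 0, 2.19 and 5.85 in the P libraries. *Trp53* had 3.99, 6.08 and 3.38 FPKM in the NP libraries and 0, 0.217 and 0 in the P libraries. Its fractions did not overlap on the FPKM as deposited, as for 23.8% of all tested genes. The 3-read limit of *Trp53* in AF P replicate 1 was 4.53 FPKM, above its level in AF NP replicates 1 and 3.

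**Figure D4:**
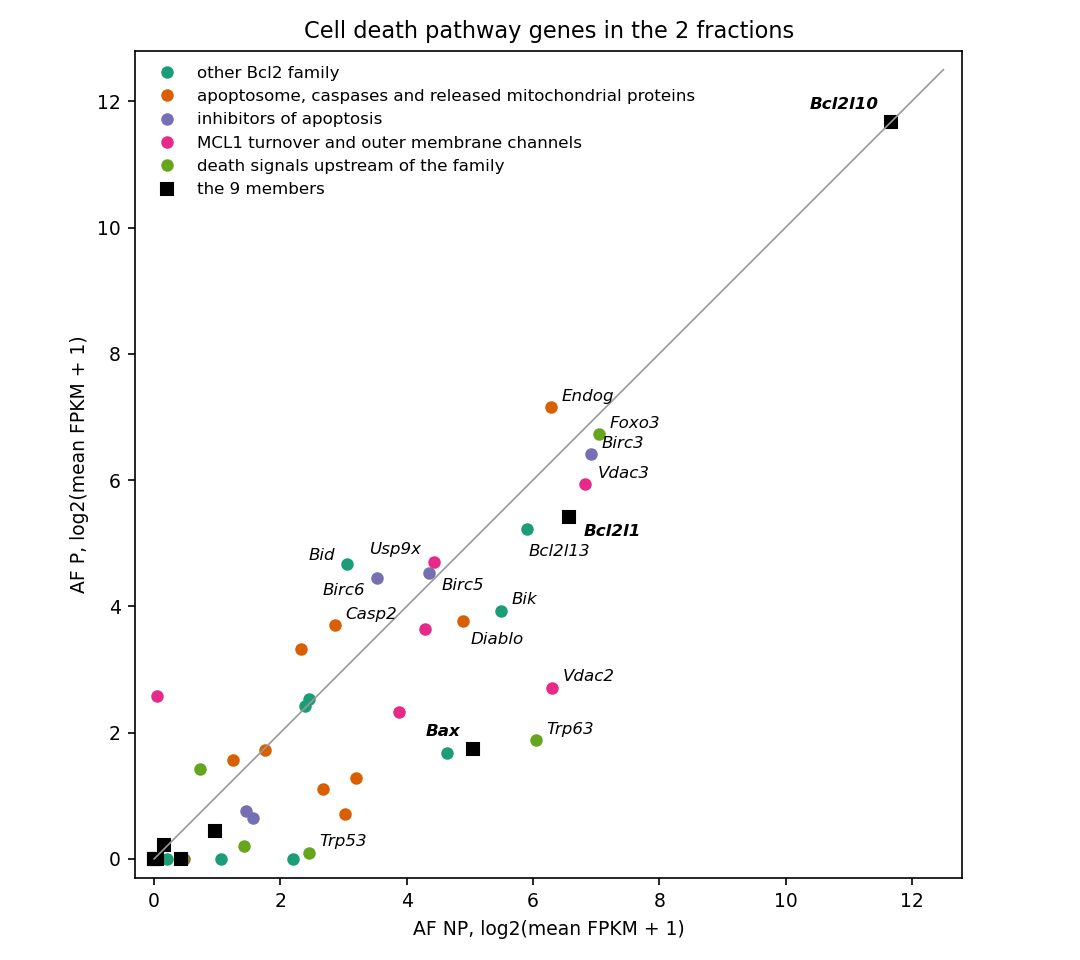
Mean FPKM in AF P against AF NP, as log2(mean FPKM + 1), for the 45 genes of 5 pathway lists (circles) and the 9 members (squares); the line marks equal means of n = 3 libraries. *Bcl2l10* lies on the line at the top, *Bcl2l1* and *Bax* lie below it, and means such as those of *Endog* and *Bid* rest on 1 P library.

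Markers of other ovarian cells were mostly at 0. Of 11 granulosa markers, 6 were listed at 0 throughout, and the summed level was carried by *Cyp19a1*, with 7.15, 22.5 and 104 FPKM in the NP libraries and 15.4, 0 and 0 in the P libraries, and by *Nr5a2*, with 3.37, 6.32 and 26.9 in the NP libraries and 0, 5.71 and 1.18 in the P libraries. *Kitl* was at 1.06 FPKM or less in every library. AF NP replicate 3, the highest for *Cyp19a1* and *Nr5a2*, had the least *Bax* of the NP libraries. This is 1 library, and whether the markers and *Bax* are linked was not tested. All 7 blood and immune markers in the table, *Hba-a1*, *Hba-a2* and *Ptprc* among them, were at 0 in every library, and of 8 stroma, theca and vessel markers 6 were, *Col1a1* among them. *Star* was at 8.80 FPKM in AF NP replicate 2 and at 0 elsewhere. *Pecam1* made up most of the last list, which summed to 23.8 to 30.6 FPKM in NP and 0 to 11.3 in P.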

How the data were processed

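After removal of rRNA, the RNA of the pooled gradient fractions was reverse transcribed, amplified with a whole transcriptome kit and sequenced. Per the labels, the authors used Trim Galore 0.4.1 for trimming, checked reads with FastQC 0.11.5 and aligned them to GRCm38 with HISAT2 2.0.5. The authors deposited FPKM per gene from Seqmonk 1.40.0. Which annotation, strand setting and read filters went into these values is not given in the sources used here. Since FPKM divides by mapped reads, reads outside the listed genes lower a whole library. The authors' group means, also in the table, were not used.

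The table held 25965 rows, and for each of 58 duplicated symbols the row of highest mean was kept. Exon lengths came from GENCODE M21 (GRCm38), whose coordinates equalled the table's for 13247 of 22663 genes with a length. Depth was estimated as the value that made most of the 1000 lowest values per library whole (86.7% to 90.5% within 0.02 reads). The depths spanned 110.5-fold. What 1 step counts is not settled, and amplified reads are not independent molecules.

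The comparison of P with NP used limma 3.58.1 (R 4.3.3) on log2(FPKM + 1) with a mean-variance trend, restricted to genes averaging more than 1 FPKM in NP or in P. Tests were two-sided with Benjamini-Hochberg adjustment over all genes tested and a threshold of 0.1. The procedure was tested on simulated data, where it recovered the changed genes at a low spread and none at the median spread of these libraries, so a gene that did not pass may still differ. No source says that replicates came from separate animals, so p-values measure the spread between these samples, which may be technical. With 3 against 3, an exact permutation test cannot go below 0.1. Near copies were sought with BLAST 2.17.0 (at least 90% identity over 100 bases). Summaries and plots used Python 3.11.15.

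All 9 members are named. Of other lists, genes past the threshold and the 3 with the highest mean FPKM are named, and for the 2 most abundant members the 3 genes of highest Pearson r. Members and lists were chosen with earlier results of these data known. The alternatives changed the pseudocount, the filter, the scaling and the trend, added a replicate block, left out single libraries or set the threshold at 0.05.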

Additional observations from a re-analysis of the deposited data

How the results depend on the processing

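The depth of the P libraries limits what can be said of the members at 0, most of all in AF P replicate 1. The 6 members under the filter were tested only in the alternative with no filter, where 0 of the 9 members passed (limma, 1 at an unadjusted p under 0.05). For *Bcl2l10* the log2 ratio, -0.06 as reported, was 0.95 after median-of-ratios rescaling, 0.81 after quantile normalization and 0.88 at a common FPKM sum (adjusted p between 0.644 and 1 over 15 alternatives), and for *Bcl2l1* it was 0.15, 0.17 and 0.086 (0.318 to 0.983). The cause was not tested, but these scalings moved the median of all genes. Leaving out 1 library gave -0.38 to 0.19 for *Bcl2l10*, positive without AF NP replicate 1, AF P replicate 1 or AF P replicate 2, -1.32 to -0.17 for *Bcl2l1* and -4.49 to -2.75 for *Bax*, which was negative in all 15 alternatives (-5.64 to -2.08, adjusted p 0.081 to 0.703). The share of *Bcl2l10* in the members' sum, 97.3% over the 6 libraries, was 96.9% to 98.3% when a library was left out.

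Deviations of same-numbered NP and P libraries from their group means correlated at 0.0634, 0.0991 and 0.116, and the other pairs at -0.0886 to 0.0208. Each library correlated best with its own number, although the values were small. Each sample's fractions were pooled into both an NP and a P part, but no source used here says that the numbers match. The main comparison was therefore made without pairs. If the numbers do match, the fit with the replicate block is the one that respects the pairs. With the replicate block, *Bax* had a log2 ratio of -3.48 and an adjusted p of 0.081, so that 1 of the 3 members passed in place of 0, and 668 of all genes passed in place of 192.

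The count of 192 genes (190 lower) was 69 with a pseudocount of 0.1, 1 with no filter, 3 (1 lower) after median-of-ratios rescaling, 4 (2 lower) after quantile normalization, 6 (4 lower) at a common sum, 15 with no trend and 65 at a threshold of 0.05. It was 0 without any 1 of AF NP replicates 1 to 3 or AF P replicates 1 and 2, and 55 without AF P replicate 3.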
